A study of Mus musculus with 56 samples.

Results

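The genes of the oxidative stress response governed by NRF2 were followed in the lung, liver and forestomach of mice given chrysene, a polycyclic aromatic hydrocarbon. The 10 chosen comprised the gene of the factor itself, Nfe2l2, and 9 of its classical targets, Nqo1, Hmox1, Gclc, Gclm, Slc7a11, Gsr, Txnrd1, Srxn1 and Osgin1. Probes were assigned to genes through the RefSeq accession given for each probe, and all 10 genes were found, with 12 of the 55681 probes of the array, among 20018 genes that could be named. Hmox1 and Gsr had 2 probes each, and the probe with the brightest mean Cy5 signal was used. For dose, all 10 genes could be tested in lung and forestomach and 9 in liver, where Slc7a11 was not well above background on any of the 19 arrays.

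The animals were adult male MutaTMMouse, a transgenic strain that carries a reporter for scoring mutations, aged about 14 weeks. For 28 days they received a daily oral gavage of either the olive oil vehicle (D0) or chrysene dissolved in it, at 17.5 mg/kg body weight/day in D1, 50 in D2 and 150 in D3, and tissues were collected 72 hours after the last dose. From D0 to D3 there were 5, 5, 3 and 5 lungs, 5, 5, 4 and 5 livers and as many forestomachs as livers. The tissues came from the same 19 mice, numbered 1 to 5 (D0), 6 to 10 (D1), 11, 12, 13 and 15 (D2) and 16 to 20 (D3). Mouse 11 had no lung array. Each value is a log2 ratio of one mouse's tissue RNA (Cy5) over a Universal Mouse Reference RNA pooled from 11 mouse cell lines (Cy3), so 0 means the level in the reference and 1 unit means a 2-fold difference. Levels of different genes cannot be compared on this scale.

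NRF2 is a transcription factor that is held at low abundance by KEAP1, an adaptor that delivers it to a cullin ubiquitin ligase. Electrophiles and oxidants modify KEAP1, NRF2 then accumulates, pairs with a small MAF protein and binds antioxidant response elements in its target genes. These targets supply glutathione and thioredoxin reducing power and detoxify quinones, including those formed from polycyclic aromatic hydrocarbons, and several of them are also used at a high basal level by liver or squamous epithelium.

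Promoter sequence shows how differently the element is placed among these genes. RefSeq entries (GRCm38.p6) held the stretch before the start of transcription for 7 of the 10 genes, and the 250 bases before each start were searched on both strands for the core of the antioxidant response element, written as TGACNNNGC or TGAGNNNGC. The 7 genes have 9 promoters in all, since Txnrd1 has 3 starts. At least one match was present in 6 of the 9 promoters, 1 each for 6 of the 7 genes, and 23.0% of all 32851 promoters of that length held one. Osgin1 and Gclm are shown because they had the largest excess of liver over lung, Srxn1 because it holds 2 cores and Nqo1 because it varied most between tissues and held no match in this window. Each runs 5′ to 3′ on the strand of the gene and ends at the base before the start. Capitals mark the core, which appears as its reverse complement where the match is on the opposite strand.
Gclm: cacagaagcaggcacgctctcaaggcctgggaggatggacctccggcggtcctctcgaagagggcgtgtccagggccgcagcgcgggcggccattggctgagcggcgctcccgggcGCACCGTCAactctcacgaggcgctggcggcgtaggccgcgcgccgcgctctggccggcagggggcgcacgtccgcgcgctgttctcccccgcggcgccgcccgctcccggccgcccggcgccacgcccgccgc
Osgin1: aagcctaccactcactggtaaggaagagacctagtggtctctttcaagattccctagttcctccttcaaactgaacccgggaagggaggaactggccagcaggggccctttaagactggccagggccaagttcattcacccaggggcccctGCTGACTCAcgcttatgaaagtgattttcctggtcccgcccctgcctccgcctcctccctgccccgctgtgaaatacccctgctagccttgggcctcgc
Srxn1: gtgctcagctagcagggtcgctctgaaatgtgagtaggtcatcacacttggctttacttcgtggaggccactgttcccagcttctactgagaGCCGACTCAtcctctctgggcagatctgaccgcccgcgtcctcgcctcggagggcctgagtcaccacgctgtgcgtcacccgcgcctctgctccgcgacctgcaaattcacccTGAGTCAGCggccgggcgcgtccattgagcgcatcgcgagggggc
Nqo1: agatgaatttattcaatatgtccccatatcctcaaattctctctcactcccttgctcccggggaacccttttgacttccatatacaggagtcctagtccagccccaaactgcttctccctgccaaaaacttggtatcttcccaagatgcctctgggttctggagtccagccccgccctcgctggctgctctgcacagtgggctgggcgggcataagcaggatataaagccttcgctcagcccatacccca

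These stretches lie at chr3:122245307-122245556 (Gclm, plus strand), chr8:119436897-119437146 (Osgin1, plus strand), chr2:152105274-152105523 (Srxn1, plus strand) and chr8:107403206-107403455 (Nqo1, minus strand). The Gclm match, TGACGGTGC, spans positions -134 to -126 from the start. The Osgin1 match, TGAGTCAGC at -99 to -91, overlaps TGACTCA at -97 to -91, the AP-1 motif, which 4.46% of all promoters hold. Srxn1 has 2 cores, TGAGTCGGC at -158 to -150 and TGAGTCAGC at -45 to -37, and 2 TGACTCA matches on the minus strand, of which that at -45 to -39 overlaps the second core and that at -102 to -96 lies apart. Slc7a11 holds TGAGAAAGC, Nfe2l2 itself TGACTCCGC and 1 of the 3 starts of Txnrd1 TGACAAAGC. A match describes letters only, since binding was not measured.

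Marker genes fitted the tissue labels. Lung epithelial markers averaged 5.95 to 7.09 on every lung array, hepatocyte markers 6.50 to 7.07 on every liver array and stratified squamous markers 3.12 to 5.10 on every forestomach array. Some arrays stood apart. In lung, mice 17 and 19 of D3 had squamous markers at 3.47 and 3.90 against at most -0.14 on the other lung arrays, and skeletal muscle markers at 5.37 and 5.15 against at most -0.29. In forestomach, the list of 9 glandular stomach markers averaged 5.49 to 7.03 on 10 arrays, from mice 2, 3, 5, 8, 10, 11, 12, 13, 15 and 19, and 0.25 to 2.34 on the other 9. All 4 D2 forestomach arrays were among the 10. In RNA from whole tissue, a larger share of one cell type and more RNA per cell cannot be told apart. Spots well above background made up 47.6 to 55.2% of an array in lung, 33.2 to 45.2% in liver and 18.1 to 50.2% in forestomach.

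**Figure D1:**
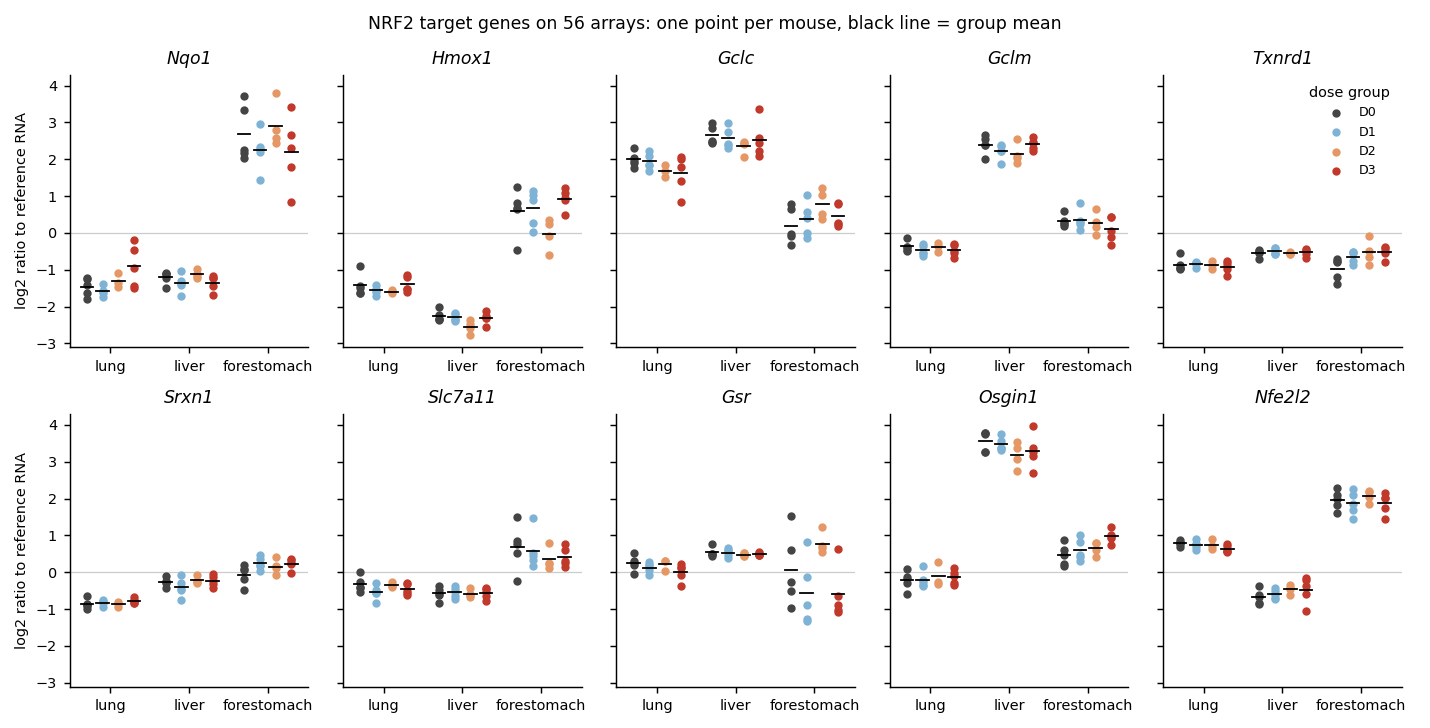
Log2 ratio to the reference RNA (vertical axis) of the 10 genes on 56 arrays, grouped by tissue and coloured by dose group, with one point per mouse and a black line at the group mean. The liver points of Osgin1 lie between 2.70 and 3.97 at all doses, against at most 1.24 in forestomach, and each dose group overlaps D0 of its tissue for every tested gene except Hmox1 in liver at D2.

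The genes were first compared between tissues of the vehicle mice, to learn where each is high or low without chrysene. A gene passed where limma on all 56 arrays gave at least a 1.5-fold difference and a p of at most 0.05 after Benjamini-Hochberg adjustment over all probes. By this measure, 6 of 10 genes differed between liver and lung, where 46% of 32696 probes did. Between forestomach and lung 8 of 10 genes differed against 37.6% of 32606 probes, and between liver and forestomach 7 of 10 against 41% of 29637 probes. A probe entered such a comparison when it was above background in either tissue, so Slc7a11 is among the 10 although it was never above background in liver. Without it the counts were 6, 7 and 6 of 9. The median difference of the 10 genes was 0.31 for liver over lung, 0.75 for forestomach over lung and 0.12 for liver over forestomach, and that of all probes was -0.03, 0.00 and -0.04. Each tissue was hybridised on 3 slides of its own, so tissue and slide cannot be told apart.

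Nqo1, the quinone reductase, was the most forestomach-biased of the 10 genes. Its D0 log2 ratios were 2.03, 3.71, 3.33, 2.18 and 2.24 in forestomach, in the order of mice 1 to 5. In lung they were -1.63, -1.26, -1.22, -1.40 and -1.80, and in liver -1.49, -1.13, -1.09, -1.10 and -1.23. All 5 forestomach values lay more than 3 units above every lung and liver value, while lung and liver overlapped. Forestomach exceeded lung by 4.16 (SE 0.30, 17.9-fold, limma adjusted p 1.2e-16) and liver as well (difference of liver from forestomach -3.91, adjusted p 5.2e-16). Mice 2 and 3, the 2 highest, were among the 3 D0 forestomach arrays with high glandular markers. Without mice 2, 3 and 5, which left only mice 1 and 4, the forestomach excess of Nqo1 over lung was 3.57 and the difference of liver from forestomach -3.31.

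Osgin1, an oxidative stress-induced growth inhibitor, was biased to liver. Its D0 values in liver were 3.79, 3.78, 3.27, 3.76 and 3.26. They were -0.59, 0.09, -0.13, -0.30 and -0.19 in lung, and 0.61, 0.24, 0.17, 0.87 and 0.46 in forestomach. The liver group was thus far above both others, by 3.79 over lung (SE 0.171, 13.9-fold, limma adjusted p 4.0e-25) and by 3.10 over forestomach (adjusted p 2.1e-21). Forestomach was above lung by 0.69 (adjusted p 0.00054) in the authors' ratios, while it was under 1.5-fold without mouse 1 (0.56) or with a loess of the scanner signals (0.48), and median centring of the arrays turned this difference of Osgin1 to -1.49.

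Gclm encodes the modifier subunit of glutamate-cysteine ligase, which makes the first committed precursor of glutathione. Its D0 values in liver were 2.67, 2.40, 2.38, 2.02 and 2.55. In lung Gclm read -0.47, -0.14, -0.38, -0.37 and -0.48, and in forestomach 0.24, 0.28, 0.20, 0.32 and 0.60. No liver value overlapped either group, and liver exceeded lung by 2.77 (SE 0.14, 6.82-fold, limma adjusted p 4.0e-23) and forestomach by 2.07 (adjusted p 4.7e-18). Gclm was also higher in forestomach than in lung, by 0.70 (adjusted p 3.3e-05), which was -0.81 under median centring and 0.14 relative to the median of all probes there.

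Gclc, the catalytic subunit of the same enzyme, did not follow its partner. Its D0 values were 1.96, 1.90, 1.76, 2.04 and 2.32 in lung. They were 2.97, 2.48, 2.45, 2.51 and 2.84 in liver and -0.33, 0.79, 0.64, -0.04 and -0.09 in forestomach. Lung was therefore near liver for Gclc and near forestomach for Gclm, each as a ratio to the reference. Gclc was lower in forestomach than in lung by 1.80 (log2 difference -1.80, SE 0.224, limma adjusted p 1.7e-09) and than in liver by 2.45 (adjusted p 1.5e-13). Liver exceeded lung by 0.65 (adjusted p 0.0091), a call that ended without mouse 1 (0.56, under 1.5-fold) and under median centring (-0.047, or 0.58 relative to the median of all probes).

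Slc7a11, the cystine transporter that feeds glutathione synthesis, was dim, with 5 of 18 lung and 10 of 19 forestomach arrays well above background. Its D0 values in forestomach were 0.76, 0.84, -0.24, 0.52 and 1.51, against -0.43, -0.39, -0.26, -0.54 and 0.01 in lung and -0.59, -0.83, -0.37, -0.47 and -0.63 in liver. Forestomach was higher than lung by 1.00 (SE 0.186, limma adjusted p 8.6e-06), although its lowest array lay within the lung range and only 2 of 5 D0 lung arrays were above background, so that this value rests partly on signals at background. As liver had no array above background, the difference from liver is a bound, and Slc7a11 was at least 2.17-fold higher in forestomach, where 3 of 5 arrays measured it. Bounds of this kind compare the mean log2 Cy5 signal over all 5 arrays of a group, after loess and scaling between arrays, and are open to dye bias because no dyes were swapped. Gsr, glutathione reductase, had D0 means of 0.24 ± 0.20 in lung, 0.54 ± 0.14 in liver and 0.07 ± 0.99 in forestomach (SD, n = 5 each) and passed in no pair of tissues. The forestomach values of Gsr are set beside the glandular markers further down. Leaving out forestomach mice 2, 3 and 5 left only D0 mice 1 and 4, with 23.4% and 18.1% of spots well above background. With these 2 arrays Gsr differed by -0.98 from lung (limma adjusted p 0.0073) and liver exceeded forestomach by 1.28 (adjusted p 0.00058). The latter was 0.84 (adjusted p 0.012) without mouse 3 alone, and the second Gsr probe put liver above lung by 0.74 (adjusted p 0.024) and above forestomach by 0.92 (adjusted p 0.0063).

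Hmox1 encodes the inducible haem oxygenase, which is also abundant in macrophages that recycle haem. The D0 values of its brighter probe were 1.26, 0.67, -0.45, 0.64 and 0.81 in forestomach, -1.64, -1.50, -1.45, -1.62 and -0.89 in lung and -2.34, -2.01, -2.34, -2.36 and -2.23 in liver. The 3 groups did not overlap, with forestomach over lung by 2.01 (SE 0.195, limma adjusted p 1.7e-12) and lung over liver (difference of liver from lung -0.83, adjusted p 0.0002). Its second probe put liver above lung instead, by 0.77 (adjusted p 0.00043), and forestomach above lung by 1.73, so the order of lung and liver for Hmox1 is not settled by this array. Median centring brought the forestomach to lung difference of Hmox1 to -0.21, or 0.74 relative to the median of all probes.

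Of the thioredoxin arm, Srxn1 passed in both comparisons with lung and Txnrd1 in no pair of tissues. Txnrd1, the cytosolic thioredoxin reductase, had D0 means of -0.86 ± 0.17 in lung, -0.55 ± 0.10 in liver and -0.97 ± 0.31 in forestomach (SD, n = 5 each). Liver exceeded lung by 0.31 (limma adjusted p 0.011) and forestomach by 0.43 (adjusted p 0.0008), both under 1.5-fold. The second reached 0.75 without forestomach mice 2, 3 and 5, which left only mice 1 and 4. Srxn1, which repairs overoxidised peroxiredoxins, had D0 means of -0.87 ± 0.13 in lung, -0.26 ± 0.11 in liver and -0.07 ± 0.27 in forestomach. Srxn1 was higher in liver by 0.61 (adjusted p 1.3e-06) and in forestomach by 0.80 (adjusted p 4.5e-09), and median centring turned both below 0, to -0.14 and -1.45, which is 0.48 and -0.50 relative to the median of all probes. The liver call on Srxn1 ended without mouse 4 (0.53, under 1.5-fold).

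Nfe2l2 itself was highest in forestomach and lowest in liver. Its D0 values were 1.81, 1.99, 2.10, 2.29 and 1.61 in forestomach, 0.80, 0.75, 0.69, 0.81 and 0.88 in lung and -0.61, -0.68, -0.83, -0.37 and -0.87 in liver. No groups overlapped. Forestomach exceeded lung by 1.17 (SE 0.135, limma adjusted p 2.2e-10), which became -1.08 under median centring, and liver was below lung (-1.46, adjusted p 1.6e-13) and below forestomach (-2.63, adjusted p 1.2e-22). Among the targets, the brighter Hmox1 probe also had its lowest mean ratio in liver, at -2.26, whereas Osgin1, Gclm and, by the lung comparison that ended under some alternatives, Gclc had their highest ratio there. Txnrd1 and Gsr had their highest mean ratio in liver too, but their probes used here passed in no pair of tissues. Slc7a11 is not ranked, since it was not above background on any liver array.

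Median centring put the median of all probes itself at -0.62 for liver over lung, -0.95 for forestomach over lung and 0.17 for liver over forestomach, so differences were also read relative to that median. Read this way, Nqo1 stayed 2.70 above lung in forestomach, Gclc -2.94 from it, Hmox1 0.74 and Slc7a11 1.49 above it, while Srxn1, Osgin1 and Nfe2l2 lay at -0.50, -0.54 and -0.13. The calls among the 10 genes divided into 4 higher and 2 lower in liver against lung in the authors' ratios and 2 and 2 under median centring. They divided into 7 and 1 against 1 and 5 for forestomach over lung, and into 3 and 4 against 5 and 2 for liver over forestomach. Signs that held under every scaling tried included the forestomach excess of Nqo1, the forestomach deficit of Gclc, the liver excess of Gclm and Osgin1 and the liver deficit of Nfe2l2 and of the brighter Hmox1 probe.

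**Figure D2:**
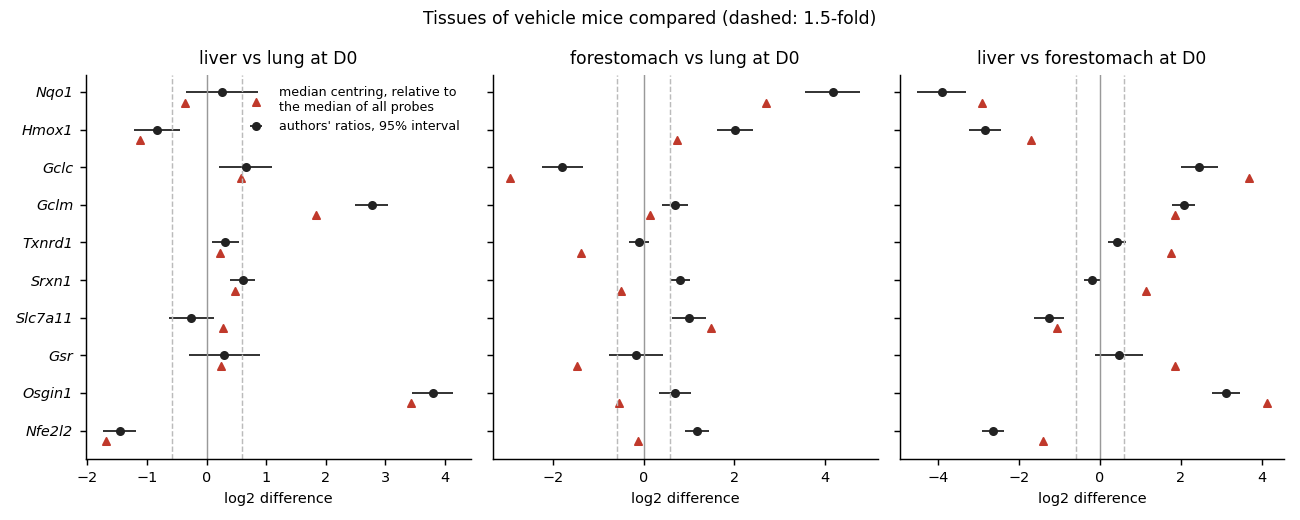
Log2 difference between tissues of the vehicle mice (horizontal axis, one row per gene), as the limma estimate with its 95% interval from the authors' ratios (black) and after median centring, relative to the median of all probes (red triangles), with dashed lines at 1.5-fold. Forestomach over lung is at 4.16 for Nqo1 in black and 2.70 in red, while Osgin1, Srxn1 and Nfe2l2 are above 0 in black and below 0 in red.

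The rest of the pathway was read from lists of 10 regulators of NRF2 and 42 further targets, of which 41 had a probe. In liver against lung, 23 further targets were higher and 10 lower of 41 tested, and 1 regulator was higher and 3 lower of 10, where 21.1% of all probes were higher and 24.9% lower. Under median centring the further targets divided into 8 higher and 8 lower and the regulators into 0 and 7, where 5.69% of all probes were higher and 40.9% lower. Abcc2, the canalicular conjugate export pump, was at least 59.7-fold higher in liver, since no D0 lung array was above background. The glutathione transferase Gstp1 was higher by 3.96 and catalase, Cat, by 3.50, while the glutathione peroxidase Gpx2 (-4.62, above background on 2 of 5 D0 livers), the carbonyl reductase Cbr3 (-3.62) and the aldo-keto reductase Akr1b8 (-2.45) were lower (limma adjusted p at most 3.2e-15 for each). In forestomach against lung, 20 further targets were higher and 9 lower of 40 tested, against 18.3% and 19.3% of all probes, a division that turned to 2 higher and 18 lower under median centring, against 2.72% and 55.1% of all probes. Gsta1 and Gsta2, near-identical alpha class glutathione transferases whose probes may share signal, were higher by 7.21 and 6.05, Cbr3 was higher by 3.01, and Aox1 (-2.98, above background on 2 of 5 D0 forestomachs), the peroxiredoxin Prdx6 (-2.80) and ferritin heavy chain, Fth1 (-2.54), were lower. Between liver and forestomach, 18 were higher in liver and 14 lower of 41 tested, against 19% and 22% of all probes, and 19 and 8 under median centring, against 17.4% and 5.14%. Abcc2 was at least 57.2-fold higher in liver, as no D0 forestomach was above background, and the transferase Gsta3 was higher by 5.93 and Cat by 5.13. Cbr3 (-6.63), the microsomal transferase Mgst2 (-4.59) and Gpx2 (-6.26, above background on 2 of 5 D0 livers) were lower in liver.

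Among the 10 regulators, 1 was higher and 4 lower in forestomach than in lung, against 18.3% and 19.3% of all probes, and median centring made this 0 and 10, against 2.72% and 55.1%. In liver, 3 were higher and 2 lower than in forestomach, against 19% and 22% of all probes, and median centring made this 3 and 0, against 17.4% and 5.14%. In the authors' ratios Keap1 passed in no pair of tissues. Maff and Mafk encode small MAF proteins, the partners of NRF2. Maff was lower in liver than in lung (-0.92) and forestomach (-1.51), and Mafk was lower than in lung both in liver (-1.31) and in forestomach (-0.98). Bach1, a repressor that competes for the same elements, was lower in forestomach than in lung (-1.15), and Sqstm1, the selective autophagy receptor that binds KEAP1, was higher in liver than in forestomach by 1.11. Sqstm1 was also higher in liver than in lung by 0.68, a difference of 0.73 with loess, 0.70 with normexp and -0.29 with median centring, where it was 0.33 relative to the median of all probes. The 1 regulator counted as higher in forestomach than in lung was Maff (0.59), and that call ended with loess (0.39, limma adjusted p 0.051) and normexp (0.36, adjusted p 0.080), while median centring gave -1.57. Mafg and Bach2 also passed in forestomach against lung and Rbx1 in both liver comparisons, and the names given here were chosen after their values were seen.

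The dose comparisons asked whether these genes respond to chrysene. None of the 10 genes passed in any of 15 limma comparisons, which were D1, D2 and D3 against D0, all doses against D0 and the dose trend in each of the 3 tissues. The background was low as well, with 0.127% of 31448 probes past both limits in lung at D3, 0.169% in the lung trend, 0.00728% of 27491 probes in forestomach at D3, 0.04% in the forestomach trend, 0.00318% for any dose in lung and 0% in the other 10 comparisons. At D3 an unadjusted p of at most 0.05 was reached by 1 of 10 genes in lung, 0 of 9 in liver and 3 of 10 in forestomach, all 4 of them higher than in D0. Over all probes this share was 6.05% higher and 10.1% lower in lung, 2.46% and 2.33% in liver and 5.45% and 3.79% in forestomach. The median D3 difference of the 10 genes was -0.09 in lung, -0.03 in liver and 0.09 in forestomach, and that of all probes was -0.03, -0.01 and 0.00. Outside D3, that unadjusted limit was reached upwards in forestomach by Srxn1 at D1 (2.25% of all probes), by Gclc and Txnrd1 at D2 (3.27%), by Txnrd1 and Osgin1 in the trend (5.14%) and by Txnrd1, Srxn1 and Osgin1 for any dose (4.85%). In liver Hmox1 reached it downwards at D2 (1.79% of all probes), and in the lung trend Nqo1 did so upwards (6.37%) and Gclc downwards (11%).

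**Figure D3:**
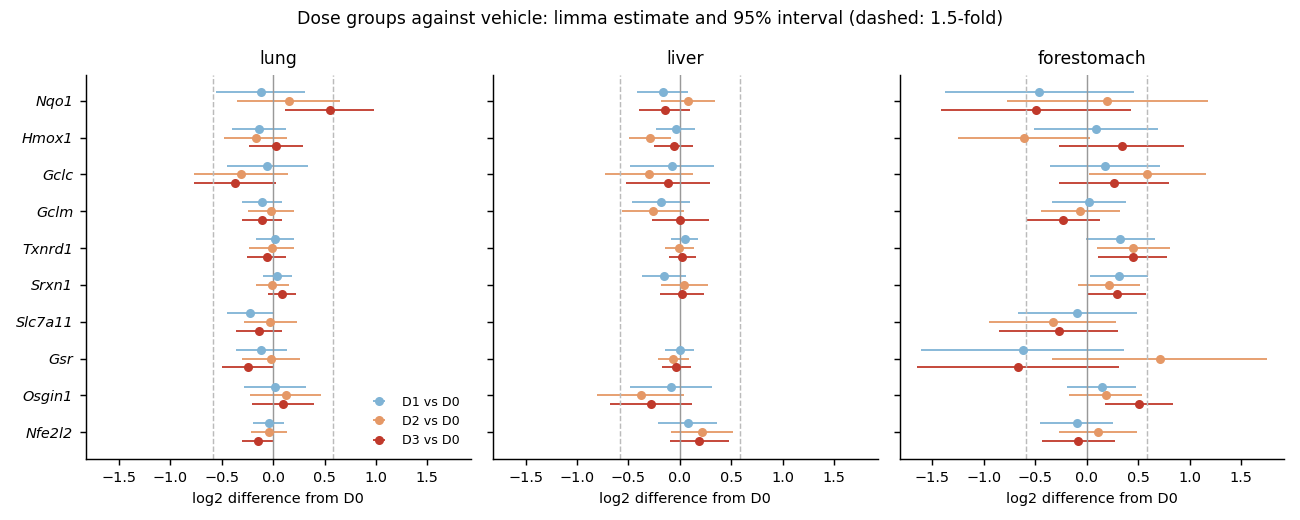
Log2 difference of each dose group from the vehicle group (horizontal axis, one row per gene), as the limma estimate with its 95% interval, in lung, liver and forestomach, with dashed lines at 1.5-fold and no points for Slc7a11 in liver, where it was not tested. The intervals of Nqo1 in lung and Osgin1 in forestomach at D3 lie above 0, at 0.12 to 0.98 and 0.18 to 0.84, as do those of Txnrd1 and Srxn1 in forestomach at D3. Those of Nqo1 and Gsr in forestomach are the widest.

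In lung, Nqo1 had the largest D3 difference of the 10 genes. Its D3 values were -0.95, -0.48, -1.43, -0.19 and -1.51 for mice 16 to 20, against -1.80 to -1.22 at D0, -1.75 to -1.38 at D1 and -1.48 to -1.08 at D2. Mice 16, 17 and 19 were above every D0 value, and mice 18 and 20 were within the D0 range. The D3 difference of Nqo1 was 0.55 (SE 0.205, 95% interval 0.12 to 0.98, limma p 0.015, adjusted p 0.22), and the fitted change over the dose range was 0.59 (adjusted p 0.16). The highest 2 values, of mice 17 and 19, were those of the arrays with high squamous and skeletal muscle markers. Without both, the D3 difference of Nqo1 was 0.16 (adjusted p 0.74), and it was 0.16 (adjusted p 0.76) with the squamous markers as a covariate. Within the 3 slides it was 0.97, 0.59 and 0.28.

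Gclc in lung had the largest D3 difference in the other direction. Its values at D3 were 2.07, 2.02, 1.40, 0.84 and 1.80, overlapping the D0 range of 1.76 to 2.32. The difference was -0.37 (limma adjusted p 0.34), it was -0.17 without mouse 19, whose Gclc was the lowest of all 18 lung arrays, and the dose trend of Gclc had an adjusted p of 0.24. The lung D3 difference of the other 8 genes ranged from -0.25 for Gsr to 0.10 for Osgin1, with Nfe2l2 at -0.15, Slc7a11 at -0.14, Gclm at -0.11, Txnrd1 at -0.06, Hmox1 at 0.02 and Srxn1 at 0.09, and the sign was positive for 4 of all 10 genes. Median centring put the median difference of all probes in lung at 0.22 at D1, 0.12 at D2 and 0.11 at D3 and turned the sign at D3 of Gclm, Txnrd1 and Nfe2l2.

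**Figure D4:**
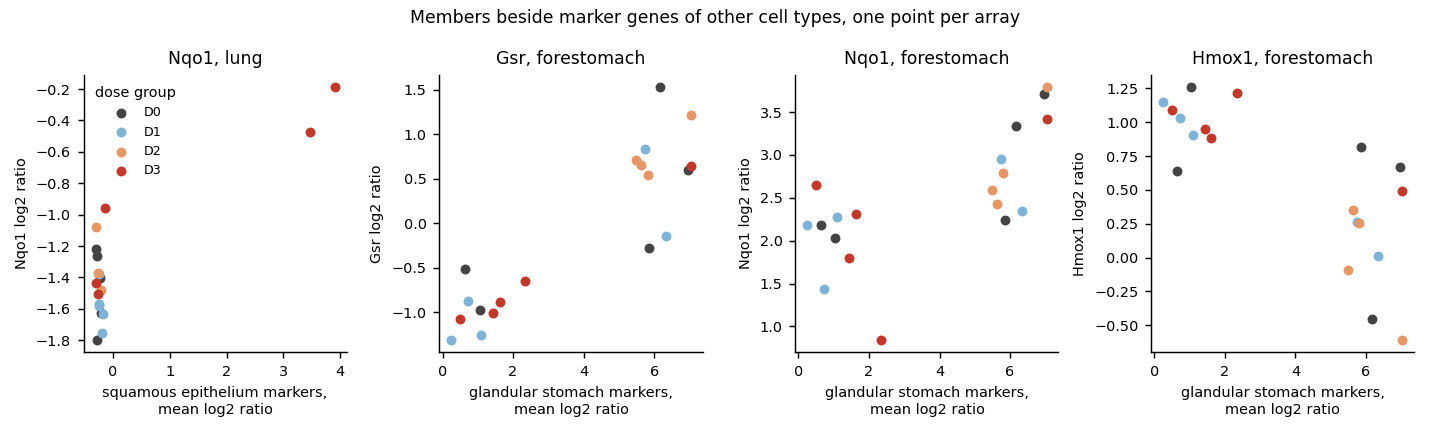
Log2 ratio of a gene (vertical axis) against the mean log2 ratio of a marker list (horizontal axis), one point per array, coloured by dose group, for Nqo1 in lung beside squamous markers and for Gsr, Nqo1 and Hmox1 in forestomach beside glandular stomach markers. The 2 D3 lungs with squamous markers at 3.47 and 3.90 have the highest Nqo1, and Gsr runs from -1.31 to -0.51 on the 9 arrays with low glandular markers and from -0.28 to 1.53 on the other 10.

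In liver, no D3 difference exceeded 0.28 in size, and the 9 tested genes gave a smallest adjusted p of 1.0 (limma). Osgin1 had the lowest D3 difference, -0.28, and Nfe2l2 the highest, 0.19. Nqo1 was at -0.15, Gclc at -0.12, Hmox1 at -0.06 and Gsr at -0.03, and Gclm, Txnrd1 and Srxn1 lay between 0.01 and 0.02. Hmox1 at D2 was the one gene in any tissue and dose whose groups did not overlap. Its D2 values were -2.47, -2.38, -2.57 and -2.77, all below the D0 values of -2.36 to -2.01. Groups were separated in the same direction for 0.547% of probes in that comparison, and 1 of 9 genes here. The difference of Hmox1 was -0.29 (SE 0.097, limma p 0.0071, adjusted p 1.0) and -0.41, -0.42 and -0.29 within the 3 slides, while the D3 values of -2.54 to -2.13 overlapped D0. Macrophage markers, 7 genes, averaged 1.51 to 2.03 in the 4 D2 livers and 2.05 to 2.66 in the D0 livers, and their part in the Hmox1 difference was not tested.

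In forestomach, 3 genes were nearest to a difference at D3. Osgin1 had values of 0.96, 1.01, 0.94, 0.73 and 1.24 at D3 against 0.61, 0.24, 0.17, 0.87 and 0.46 at D0. Of the 5 D3 arrays, 4 were above all D0 arrays, and the fifth, mouse 19, was below the highest of them, mouse 4. The D3 difference of Osgin1 was 0.51 (SE 0.158, 95% interval 0.18 to 0.84, limma p 0.0047, adjusted p 0.26). It was 0.38, 0.43 and 0.64 within the 3 slides, 0.45 with glandular markers as a covariate, and between 0.43 and 0.88 over all alternatives tried. The D1 and D2 groups held 0.31 to 1.02 and 0.41 to 0.80, and the fitted change over the dose range was 0.48 (adjusted p 0.23).

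Txnrd1 in forestomach read -1.20, -0.76, -0.71, -1.40 and -0.80 at D0. It read -0.51, -0.77, -0.55, -0.88 and -0.52 at D1, -0.50, -0.07, -0.65 and -0.86 at D2 and -0.79, -0.56, -0.50, -0.41 and -0.39 at D3. The 2 lowest values belonged to D0 mice 1 and 4, and no dose group was separated from D0, as mice 2, 3 and 5 lay among the dosed values. The D3 difference of Txnrd1 was 0.45 (SE 0.158, limma p 0.012, adjusted p 0.34), that of all doses 0.41 (adjusted p 0.28), and the D3 value was 0.55 (adjusted p 0.061) with glandular markers as a covariate. Within the slides the D3 difference was 0.52, 0.56 and 0.38.

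Srxn1 in forestomach read 0.34, 0.25, 0.36, -0.03 and 0.22 at D3 against 0.19, 0.06, -0.19, -0.48 and 0.09 at D0. Of the 5 D3 values, 4 were above all D0 values. The D3 difference of Srxn1 was 0.29 (limma p 0.043, adjusted p 0.51), and it was 0.11, 0.69 and 0.02 within the 3 slides. The lowest D0 value, -0.48, was that of mouse 4, whose array had the fewest spots well above background (18.1%). Osgin1, Txnrd1 and Srxn1 kept their sign at D3 under every scaling, whereas Nqo1, Gclm and Nfe2l2 in forestomach changed theirs under median centring, which put the median difference of all probes at 0.18 there. The D3 differences of the remaining genes in forestomach were 0.34 for Hmox1, 0.26 for Gclc, -0.08 for Nfe2l2, -0.23 for Gclm and -0.27 for Slc7a11, with standard errors of 0.17 to 0.29.

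Some genes also stood at different levels on the forestomach arrays with low and with high glandular markers. Gsr had a lowest, median and highest value of -1.31, -0.97 and -0.51 on the 9 arrays with low markers and of -0.28, 0.65 and 1.53 on the 10 with high markers, with no overlap. The share of all probes separated by this split was not counted, so the separation cannot be called particular to Gsr. Hmox1 ran the other way, with 0.64, 1.03 and 1.26 against -0.61, 0.26 and 0.81. For Nqo1 the values were 0.84, 2.18 and 2.65 against 2.24, 2.87 and 3.79. Apart from Gsr, every member overlapped between the low and high arrays. As all D2 arrays had high markers and 4 of 5 D3 arrays low ones, dose groups and marker levels are not balanced, and the part of the markers in these values was not tested beyond the covariate. Gsr was 0.71 from D0 at D2 and -0.67 at D3 (limma p 0.17 for both), and 0.22 and -0.26 with the markers as a covariate. The D2 difference of Gclc was 0.59 (p 0.042, adjusted p 0.64) and 0.37 with the covariate, and Nqo1 at D3 was -0.49 (p 0.28) and -0.22.

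The further targets and regulators gave no calls at D3 in any tissue. In lung the regulators of smallest p were Keap1 (-0.31) and Mafg (-0.23), each with a limma adjusted p of 0.14. In liver the further targets nearest to a difference were Gstm3 (-0.43, adjusted p 0.96) and Gsta4 (-0.19, adjusted p 1.0), and in forestomach Gstm1 (0.60, adjusted p 0.29) and Gsta4 (-0.54, adjusted p 0.32).

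Whether the D3 difference itself depended on the tissue was tested as an interaction. None of the 10 genes passed by limma, against 0% of probes between lung and liver, 0.705% between lung and forestomach and 0.0776% between forestomach and liver. Without adjustment, a p of 0.05 or less was found between lung and forestomach for Nqo1, with the higher difference in lung (5.18% of all probes), and Txnrd1, with the lower (7.69%), between liver and forestomach for Txnrd1 and Osgin1, both lower in liver (5.59%), and for no gene between lung and liver. Txnrd1 came closest, with a D3 difference lower in lung than in forestomach (-0.51, SE 0.156, limma adjusted p 0.097), and leaving out mouse 3 alone brought it to -0.60 (adjusted p 0.047). The fit used 1 residual spread for all tissues, while the residual SD of Txnrd1 was 0.138 in lung, 0.085 in liver and 0.250 in forestomach. A p for a contrast with forestomach may therefore be too small. Osgin1 had a lower D3 difference in liver than in forestomach (-0.79, adjusted p 0.18), and Nqo1 a higher one in lung than in forestomach (1.04, adjusted p 0.25). Of the regulators, Mafg passed between lung and forestomach, with the lower D3 difference in lung (-0.72, adjusted p 0.041), a call that ended with normexp (-0.84, adjusted p 0.052) and median centring (-1.08, adjusted p 1.0).

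Since the tissues came from the same mice, each gene was also compared across tissues after removal of dose group means. Of 28 relations none had an adjusted permutation p of at most 0.05. The strongest was Nfe2l2 in liver and forestomach over 19 mice, with Pearson's r 0.63 (permutation p 0.004, adjusted 0.10) and Spearman's rho 0.57 (p 0.013), with r at 0.45 once the 2 mice farthest from the median were left out and 0.41 within slides. Nqo1 in lung and forestomach gave r 0.53 over 18 mice (p 0.023, adjusted 0.33).

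Within a tissue, the 10 genes were set against each other in lung and liver, in 81 relations chosen after the data had been seen, and forestomach was left out because its arrays fall into 2 clusters of glandular markers. Gclc and Txnrd1 moved together across the 18 lungs, with r 0.80 (permutation p 0.0001, adjusted 0.0089), rho 0.80 (adjusted 0.016), r 0.82 without the 2 farthest mice and 0.80 within slides. No other pair had an adjusted p of at most 0.05 for r. These permutations treat values left after removal of dose group means as exchangeable, so their p may be too small. How often other probes reach such an r within lung was not computed. The next were Txnrd1 and Gsr in lung (r 0.69) and Gclc and Nfe2l2 in liver (r -0.68), both at an adjusted p of 0.052, and they were 0.44 and -0.47 without the 2 farthest mice.

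Over all 56 arrays, after removal of the dose group means and scaling within each tissue, the genes of 11756 candidates most like each of 9 members were listed, without Slc7a11, which was not measured in all 3 tissues, as a description without a test, since the arrays share tissue composition and slides. For Nqo1 these were Ptgr1, a prostaglandin and leukotriene reductase, and Mgst2 (r 0.71 for both). For Gsr they were Cxadr (0.75) and Vill (0.70), for Txnrd1 Arhgef16 (0.76) and Rfk (0.65), and for Hmox1 Ctnnbip1 (0.75) and Eif1ad (0.69). Gclc was most like Dnajc12 (0.72) and Cmip (0.71), and Gclm most like Kdsr (0.69) and Krt80 (0.64). For Srxn1, Osgin1 and Nfe2l2 the likeness was weaker, with Rasl2-9 (0.64), Rpl13 (0.57) and Hif1a (0.57) at the top of each.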

How the data were processed

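The authors quantified two-colour Agilent SurePrint G3 mouse arrays with Feature Extraction and deposited scanner intensity values (median signals per spot and channel, with flags of 0 or 1, kind "other") for 56 arrays. The authors also deposited a table of normalized log2 ratios (Cy5 over Cy3), for which the study's methods describe LOWESS on median signals with no background subtracted. These log2 ratios were used as deposited. They correlated with a loess normalization of the scanner intensity values at r 0.977 to 0.998, on the same scale and in the direction of sample over reference. The log2 ratios do not settle dye bias, since no dyes were swapped, and only differences between arrays of 1 probe were read. Columns of other samples numbered 0.

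Groups, doses and mouse numbers came from the labels. Probes entered the test in a tissue when flagged well above background in Cy5 on 3 arrays or more. They were tested with limma 3.58.1 (lmFit and eBayes, R 4.3.3, two-sided) within each tissue, and with 1 fit of all 56 arrays between tissues. A call needed at least a 1.5-fold difference and p at most 0.05 after Benjamini-Hochberg adjustment across all tested probes. The study's methods name the MAANOVA Fs test with residual shuffling, which was not run here. By the naming rule all 10 members were tested in every comparison they could enter, and the text names each between tissues and at D3 and otherwise those nearest to a difference, with the regulators and further targets of smallest p (dose) or largest called difference (tissue). The members and lists were chosen with earlier results of these data known.

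A number marks the same animal in every tissue, so the mouse pairs the samples between tissues. The median correlation across probes of a mouse's deviations was 0.089 between lung and liver, 0.012 between lung and forestomach and 0.050 between forestomach and liver. Correlations used 100000 permutations in scipy 1.17.1. The fits were tested on simulated data. Alternatives covered scaling (loess, normexp with offset 50, median centring), probe filters and choice, array weights, slide, array column, marker covariates, leaving out mice and the mouse as a block. The number of arrays limits the precision.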

Additional observations from a re-analysis of the deposited data

Results flagged for a closer look

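Of the values of the 10 genes, 8 stood apart from the rest of their dose group by Dixon's criterion. As 110 groups of 4 or 5 mice were examined, about 1 in 20, or 5.5, would be expected to do so by chance. Mouse 5 of the vehicle group gave 2 of them in lung, Hmox1 at -0.89 against -1.64 to -1.45 in the other 4 mice and Txnrd1 at -0.56 against -0.97 to -0.87. In lung at D1, Txnrd1 of mouse 10 was at -0.94 against -0.84 to -0.79, and Osgin1 of mouse 7 was at 0.16 against -0.36 to -0.22. In liver, Gsr of D0 mouse 4 was at 0.78 against 0.43 to 0.50, and Gclc of D2 mouse 15 was at 2.07 against 2.41 to 2.46. In forestomach, Slc7a11 of D1 mouse 6 was at 1.46 against 0.16 to 0.53, and Gsr of D3 mouse 19 was at 0.64 against -1.07 to -0.65. Forestomach mouse 19 was the one D3 array with high glandular stomach markers and had pancreatic acinar markers at 5.04. No explanation of these values was tested.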

How the results depend on the processing

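The count of 0 genes past both limits held in all 15 dose comparisons under every alternative run. With the mouse as a replicate block the counts between tissues stayed at 6, 8 and 7, the tests of the D3 difference between tissues at 0, and no call was changed. Over all alternatives the counts ran from 4 to 7 for liver against lung, 6 to 9 for forestomach against lung and 4 to 9 for liver against forestomach, the 4 with probes above background on every array. Leaving out each mouse in turn gave 0 to 1 genes in the test of lung against forestomach D3 differences, the 1 being Txnrd1 without mouse 3. Median centring, which put the median of all probes at -0.62 in liver against lung and -0.95 in forestomach against lung, turned 7 differences below 0, in liver against lung Gclc (-0.047) and Srxn1 (-0.14) and in forestomach against lung Gclm (-0.81), Hmox1 (-0.21), Nfe2l2 (-1.08), Osgin1 (-1.49) and Srxn1 (-1.45). Relative to that median the first 4 were above 0 (0.58, 0.48, 0.14 and 0.74) and the other 3 below. The array column nearly equals the dose group (50 of 56 arrays), so a fit with it cannot tell place from dose. The mean over both probes brought Hmox1 in liver against lung to -0.03. The slide block, marker covariates and joint removal of marked arrays were chosen after seeing the data. Forestomach had the largest residual spread, with a median SD over probes of 0.280 against 0.159 in lung and 0.156 in liver, and Slc7a11 is limited by its dim probe. The main fit between tissues used 1 spread for all of them, so its p for contrasts with forestomach may be too small. Where not stated, the cause was not tested.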

Other observations

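Genes of 2 neighbouring stress pathways were read in the same way. One list of 10 genes held Atf4 and targets of its factor ATF4, which also drives Slc7a11. Of these, 1 passed in lung at D3, the stress sensor Sesn2, at -1.46 in D3 against -0.81 in D0 (difference -0.65, SE 0.13, limma adjusted p 0.046), where 0.127% of 31448 probes passed. Without mice 17 and 19, the D3 lungs with high squamous and skeletal muscle markers, this difference of Sesn2 was -0.46 (adjusted p 0.21). Leaving out each of the 10 D0 and D3 mice in turn gave -0.73 to -0.52, with an adjusted p of at most 0.05 in 3 of 10 fits, and loess, normexp and median centring gave -0.60, -0.59 and -0.38 (adjusted p 0.059, 0.060 and 0.29). Sesn2 was also the 1 of 10 that passed in the lung dose trend (-0.65, adjusted p 0.023, against 0.169% of probes), which was -0.46 (adjusted p 0.10) without mice 17 and 19 and -0.45 (adjusted p 0.45) with median centring, and stayed past both limits in 14 of 18 fits without 1 mouse, ending without mouse 1, 4, 17 or 19. Atf4 itself passed in the test of the D3 difference between lung and forestomach (-1.03, adjusted p 0.025, against 0.705% of probes), with D3 differences of -0.15 in lung and 0.87 in forestomach. That call on Atf4 ended with loess (-0.95, adjusted p 0.068), normexp (-0.96, adjusted p 0.067) and median centring (-1.23, adjusted p 1.0) and without the lungs of mice 17 and 19 (-0.97, adjusted p 0.14), and held in 6 of 10 fits without 1 mouse, with mice 1, 4, 17 and 20 as those that ended it. Of the genes of the aryl hydrocarbon receptor, the sensor of polycyclic aromatic hydrocarbons, none passed both limits in any dose comparison. Its feedback repressor Ahrr was higher in the D3 lungs by 0.44 (SE 0.067, adjusted p 0.016), which is under 1.5-fold, and by 0.42 (adjusted p 0.13) without mice 17 and 19. Cyp1a1, the hydroxylase that the receptor is best known for inducing, had the opposite sign and a larger difference, in lungs of D1 (-1.26), D2 (-0.993) and D3 (-0.998), with adjusted p of 0.61, 0.62 and 0.13 and an unadjusted p of 0.00029, 0.0066 and 0.0022. These differences of Cyp1a1 share the same D0 lungs, so they are not independent of each other. At D3 Cyp1a1 was at -0.86 without mice 17 and 19 and at -1.13 to -0.66 without each D0 or D3 mouse in turn, the -0.66 without D0 mouse 3. Of the others tested, Cyp1b1 was at 0.34, Aldh3a1 at 0.83 and Tiparp at -0.02 in the D3 lungs (adjusted p at least 0.31), and Aldh3a1 was at -0.41 without mice 17 and 19. These genes are named after their values were seen, and these alternatives were chosen then too.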
